A study of Mus musculus with 6 samples.

Results

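The genes described here make up the Lin28 and let-7 axis: Lin28a, Lin28b, Trim71, Hmga2, Igf2bp1, Igf2bp2 and Igf2bp3. They were taken as a set because Lin28a had the clearest rise in these arrays, so they were chosen by their intensities in the contrast of mimic with control, and those values are given as a description that supports nothing. All probe sets that the platform annotation assigns to exactly 1 of these 7 gene symbols were used. These were 19 probe sets for 6 genes, out of 34958 probe sets with a single symbol for 18193 genes; Igf2bp2 had no such probe set and is not described. RNA came from mouse embryonic stem cells of a Dicer -/- line, which the series title names 27H10 and the sample titles 27H, examined undifferentiated at 24 h after transfection. All 6 samples therefore lacked Dicer, the enzyme that cuts microRNA precursors to their mature form. The control group (3 samples) received siRL, an siRNA directed at Renilla luciferase. The mimic group (3 samples) received Dharmacon mimics of the mmu-miR-290 cluster. Both groups come from 1 cell line, and the labels do not say whether replicates were separate cultures, so errors and p-values cover only the spread among these samples, and that spread could be technical.

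Lin28a and Lin28b are RNA-binding proteins that hold the loop of let-7 precursors and keep mature let-7 from forming. Lin28a does so by recruiting enzymes that add uridines to the precursor. Mature let-7 in turn represses the mRNAs of Lin28a, Lin28b, Trim71, Hmga2 and the Igf2bp genes, a loop that is tilted towards Lin28 in embryonic stem cells and towards let-7 in differentiated cells. Because release of mature let-7 needs Dicer, cells without it cannot supply their own.

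The sequences below show which microRNA family was supplied and which one the Lin28 proteins act on. The mature sequences are from RefSeq (GRCm38.p6), and capitals mark the seed, bases 2 to 8, with which a microRNA recognises its targets. The labels name the cluster but not its individual mimics, so the 3p arms listed for the cluster on the plus strand of chromosome 7 are printed; miR-292a-3p is named only.
mmu-miR-291a-3p: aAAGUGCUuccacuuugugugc
mmu-miR-294-3p: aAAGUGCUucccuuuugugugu
mmu-miR-295-3p: aAAGUGCUacuacuuuugagucu
mmu-miR-290a-3p: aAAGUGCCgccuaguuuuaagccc
mmu-miR-291b-3p: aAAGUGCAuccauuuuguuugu
mmu-miR-293-3p: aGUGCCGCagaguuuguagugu
mmu-let-7a-5p: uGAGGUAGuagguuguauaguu
mmu-let-7d-5p: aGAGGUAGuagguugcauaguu
mmu-let-7g-5p: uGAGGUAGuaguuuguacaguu
mmu-miR-98-5p: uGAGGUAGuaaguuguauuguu

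Of the 6 cluster sequences, 3 (miR-291a-3p, miR-294-3p and miR-295-3p) share the seed AAGUGCU, while miR-290a-3p has AAGUGCC, miR-291b-3p has AAGUGCA and miR-293-3p has GUGCCGC. Of these, miR-290a-3p lies at chr7:3218674-3218697 and miR-295-3p at chr7:3220815-3220837. The let-7 family carries another seed: the 9 distinct 5p sequences of let-7a to let-7i and miR-98 all have GAGGUAG.

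The precursor rather than the mature strand is what Lin28 proteins hold, and the zinc knuckles of these proteins are known to contact a GGAG stretch in the loop. Each hairpin was searched for the letters GGAG between its 2 mature arms, on the transcribed strand only. They were present in 8 of the 11 let-7 family hairpins for which both arms are listed (72.7%), against 52 of 644 mouse hairpins with both arms (8.07%). In the let-7g hairpin (chr9:106178840-106178927, plus strand) the match is at bases 56 to 59, and in the let-7a-1 hairpin (chr13:48538179-48538272, minus strand) it is at bases 56 to 59 too. The hairpin of let-7b (chr15:85707319-85707403, plus strand) has no such match. Capitals mark the match.
let-7g hairpin: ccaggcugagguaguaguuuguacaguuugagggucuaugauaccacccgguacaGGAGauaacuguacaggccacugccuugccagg
let-7a-1 hairpin: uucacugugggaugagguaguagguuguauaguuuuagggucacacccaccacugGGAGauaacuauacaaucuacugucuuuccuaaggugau
let-7b hairpin: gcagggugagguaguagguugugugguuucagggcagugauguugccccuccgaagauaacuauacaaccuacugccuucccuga

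Each value is a linear intensity, and a log2 fold change is the average log2 value of the mimic group less that of the control group. The 6 arrays had median intensities of 41.7 to 44.9 over 45101 probe sets. All 14 listed embryonic stem cell markers (among them Pou5f1, Nanog, Sox2 and Zfp42) passed the filter on low values. Their summed intensities were 132976 to 143751 on the control and 140795 to 148298 on the mimic arrays. All measured markers of endoderm (8), mesoderm (6) and neural cells (6) passed that filter too, so passing it does not show that a marker is present. Of the 11 markers of feeder fibroblasts, 4 were below the filter (Col1a1, Col1a2, Col3a1 and Postn), and the 3 collagen genes reached no more than 32.2 on any array. All 11 summed to 12849 to 13387 on the control and 9943 to 10419 on the mimic arrays, and the 10 other than the bright Vim to 1044 to 1168 and 693 to 801; their part in the values below was not tested. In RNA from whole cultures, fewer cells of a type and less RNA per cell cannot be told apart.

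Lin28a was higher in all samples that received the mimics, by 3.17-fold and 2.66-fold on its 2 probe sets, and no other tested member differed by as much. Its brighter probe set, 1421749_at, read 1600, 1580 and 1429 on the control arrays and 5071, 4971 and 4567 on the mimic arrays. The lowest mimic array was 2.85-fold above the highest control array, while the arrays within a group differed by at most 1.12-fold. The group means were 1536 ± 93.5 and 4870 ± 267 (SD, n = 3 each), and the log2 fold change was 1.67 ± 0.087 (SE), which is 3.17-fold.

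The second Lin28a probe set, 1437752_at, read 1326, 1196 and 1068 on the control arrays and 3132, 3147 and 3231 on the mimic arrays. Again the groups stood well apart, with the lowest mimic array 2.36-fold above the highest control array. Its log2 fold change was 1.41 ± 0.10 (SE), or 2.66-fold. The log2 ratio of 1421749_at to 1437752_at within an array was 0.27 to 0.42 in the controls and 0.50 to 0.70 in the mimics, and the groups did not overlap in this ratio. Both are annotated to the same gene.

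Among all 29167 tested probe sets the brighter Lin28a probe set ranked 149th by size of rise, and all those ahead of it had a mean log2 intensity under 10. Among the 6447 probe sets with a mean log2 intensity of at least 10, that is a geometric mean of 1024, the Lin28a probe sets ranked 1st and 2nd. This limit of 10 was chosen after the values were seen. The next were Pla2g1b (1.11) and Dnmt3a (1.01), the gene of a de novo DNA methyltransferase.

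**Figure D1:**
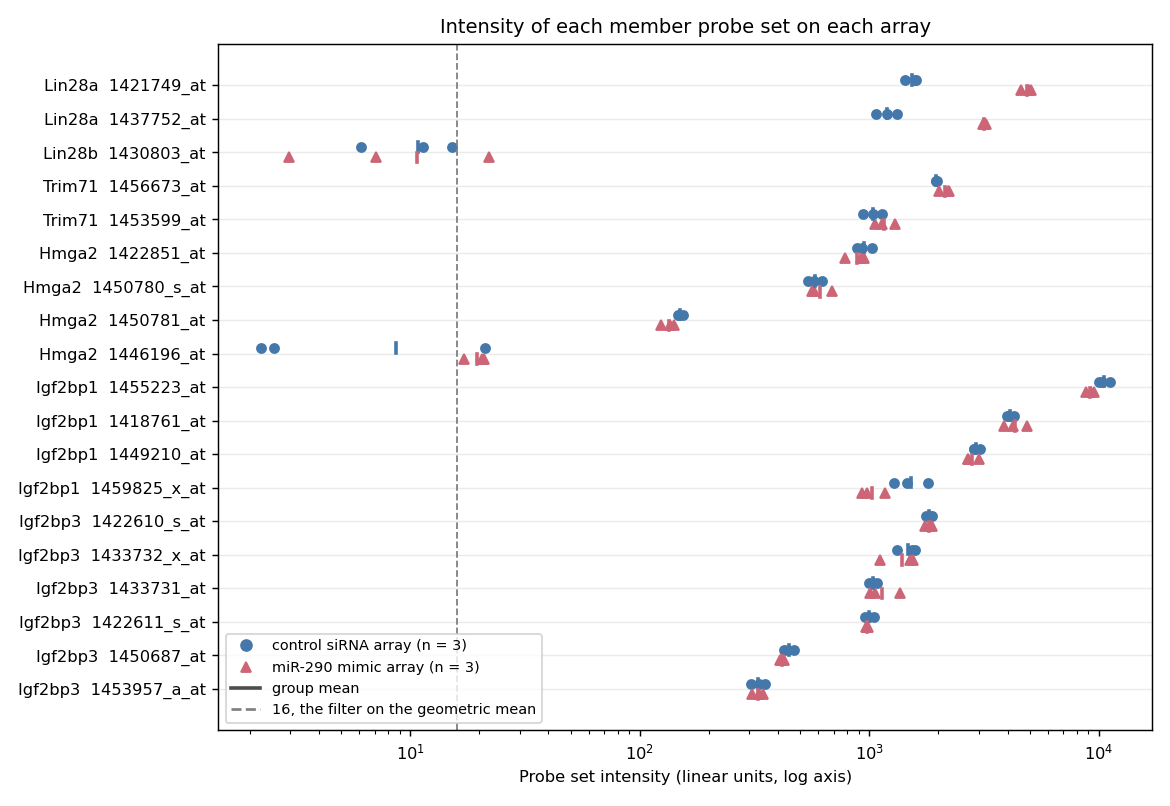
Intensity of the 19 member probe sets (rows) on the 3 control siRNA arrays (circles) and the 3 miR-290 mimic arrays (triangles), on a log axis in linear intensity units, with short bars for group means. The groups are far apart for both Lin28a probe sets (1068 to 1600 against 3132 to 5071), while Lin28b and 1 Hmga2 probe set lie around or below 16.

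Lin28b, the paralog that blocks let-7 at an earlier step in many cells, was at the floor of the array. Its only probe set, 1430803_at, read 11.3, 6.09 and 15.2 on the control arrays and 2.95, 22.0 and 7.09 on the mimic arrays. The groups overlapped fully, and with a mean log2 intensity of 3.15 the probe set fell below the filter of 4 and was not fitted. These values cannot be told from background, so they give no level for Lin28b and no fold.

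Trim71, also known as Lin41, encodes a ubiquitin ligase and RNA-binding protein of stem cells and is a classical let-7 target. Probe set 1456673_at read 1979, 1954 and 1945 on the control arrays and 2212, 2205 and 2016 on the mimic arrays, so all mimic arrays were above all control arrays, by a narrow margin. The log2 fold change was 0.13 ± 0.074 (SE), with a 95% interval from −0.057 to 0.32. The second probe set, 1453599_at, read 1041, 1131 and 939.5 against 1132, 1291 and 1061, where the groups overlapped. It gave 0.16 ± 0.12 (SE), with an interval from −0.13 to 0.46. Both intervals hold 0 and both end far below the rise of Lin28a.

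Hmga2 encodes an architectural chromatin protein whose mRNA carries many let-7 sites. Its brightest probe set, 1422851_at, read 1030, 931 and 887 on the control arrays and 782, 952 and 917 on the mimic arrays (log2 fold change −0.11 ± 0.11 SE, 95% interval −0.39 to 0.18). For 1450780_s_at the values were 574, 539 and 620 against 574, 686 and 562, a log2 fold change of 0.069 ± 0.11 (SE). Neither set of values separated the groups. A dimmer one, 1450781_at, read 147, 149 and 154 against 141, 135 and 124, with every mimic array below every control array and a log2 fold change of −0.17 ± 0.080 (SE, 95% interval −0.37 to 0.034). The fourth, 1446196_at, was below the filter and not fitted, with 21.1, 2.54 and 2.24 in the controls and 17.2, 20.5 and 21.0 in the mimics. One control array was as high as the mimic arrays there, so no direction can be read from it.

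The Igf2bp genes encode RNA-binding proteins that stabilise and transport mRNAs in embryonic cells. The brightest Igf2bp1 probe set, 1455223_at, read 10315, 10054 and 11170 on the control arrays and 9478, 9260 and 8813 on the mimic arrays. Every mimic array was lower, with a log2 fold change of −0.19 ± 0.079 (SE, 95% interval −0.39 to 0.0055). In the next pair of probe sets the groups overlapped. Of these, 1418761_at read 3987, 4062 and 4276 against 4214, 4837 and 3868 (0.062 ± 0.11 SE), and 1449210_at read 2855, 3030 and 2865 against 2701, 3004 and 2691 (−0.061 ± 0.081 SE).

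The fourth Igf2bp1 probe set differed from those. Probe set 1459825_x_at read 1278, 1457 and 1803 on the control arrays and 1172, 927 and 974 on the mimic arrays, a log2 fold change of −0.55 ± 0.17 (SE, 95% interval −0.98 to −0.13). The groups did not overlap, and the controls were spread widely. The suffix _x marks a probe set of which some probes can also bind other sequences, so its values need not come from Igf2bp1 alone. The same limit holds for the Igf2bp3 probe set 1433732_x_at. Whether probe sets with the suffix _s (Hmga2 1450780_s_at, Igf2bp3 1422610_s_at and 1422611_s_at) also bind other sequences was not examined.

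Igf2bp3 had 6 probe sets, all tested, with log2 fold changes between −0.10 and 0.12. The brightest, 1422610_s_at, read 1832, 1870 and 1764 on the control arrays and 1879, 1833 and 1748 on the mimic arrays, a log2 fold change of −0.0016 ± 0.071 (SE, 95% interval −0.18 to 0.18). The groups overlapped in 5 of the 6 probe sets. The exception was 1450687_at, which read 424, 443 and 471 against 416, 423 and 408 (−0.10 ± 0.075 SE, 95% interval −0.29 to 0.089). The largest value upward, 0.12 for 1433731_at, came with 1 mimic array (1356) well above the other mimics (1002 and 1054).

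Over all tested members, 17 probe sets entered limma's fit of 29167 and 2 lay below its filter. At a Benjamini-Hochberg adjusted p under 0.05, 2 were called higher, both of Lin28a, and 15 were not called; over all probe sets 0.343% were called higher and 0.946% lower. No member was called lower in limma, and 1, the Igf2bp1 probe set 1459825_x_at, was lower at an unadjusted p under 0.05, which 20.1% of all tested probe sets had in 1 direction or the other. The contrast chose the members, so nothing is read from these counts. The groups did not overlap for 3 member probe sets that were higher and 4 that were lower, against 13.8% and 15.5% of all tested probe sets. Without Lin28a, the median log2 fold change of the other 15 tested member probe sets was −0.029, and that of all tested probe sets was −0.0059. Under limma's trend and robust options, here the level-dependent robust prior, the fit also called Igf2bp1 1455223_at and 1459825_x_at lower. Over all 29167 tested probe sets, that prior called 1914 lower and 1379 higher. With the constant prior, leaving out any 1 of the 6 arrays ended both Lin28a calls; with the level-dependent robust prior both stayed called whichever array was left out.

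**Figure D2:**
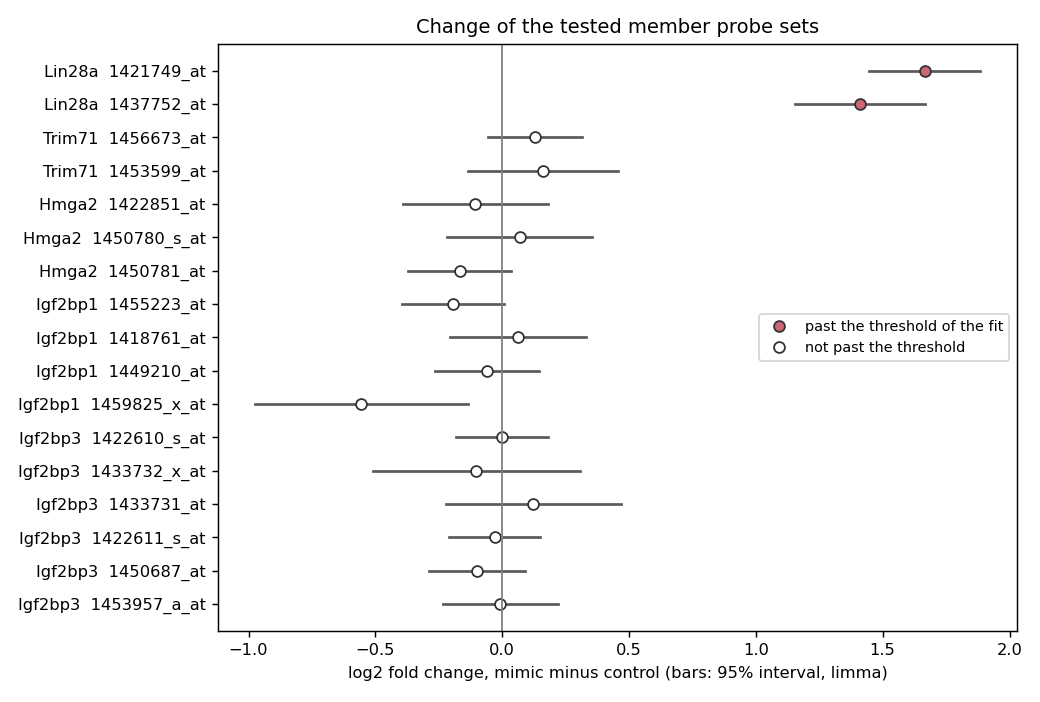
Log2 fold change (mimic minus control) of the 17 tested member probe sets, with limma's 95% interval as bars; filled points passed the threshold of the fit. The Lin28a intervals run from 1.16 to 1.89, while 14 of the other 15 hold 0 and that of Igf2bp1 1459825_x_at runs from −0.98 to −0.13.

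**Figure D3:**
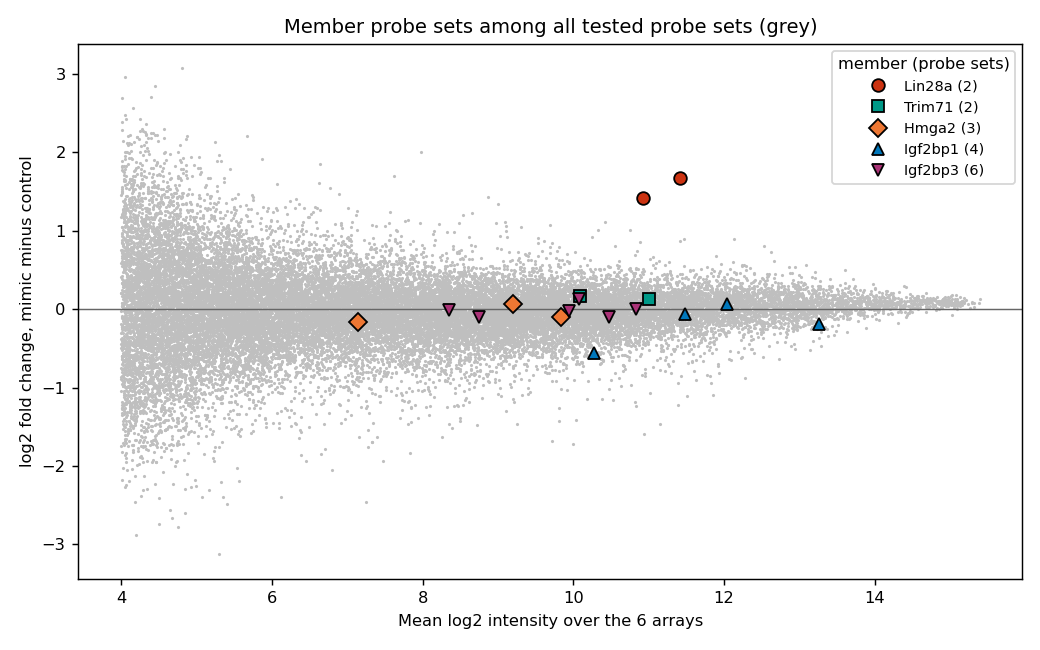
Log2 fold change against mean log2 intensity for the 29167 tested probe sets (grey) and the 17 tested member probe sets (coloured). Lin28a lies at 1.67 and 1.41 above all other probe sets of mean log2 10 or more, and the remaining members lie within the grey band between −0.55 and 0.16.

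By the likeness of their profiles, the genes nearest to Lin28a were Spink1, 2210409E12Rik, Tmem150a, Kdelr3 and Cplx1. Likeness was the root mean square difference from the brighter Lin28a probe set over the 6 arrays, on log2 values centred for each gene, among 10558 genes with a mean log2 of at least 6. It was 0.17 for Spink1, a trypsin inhibitor gene, and for 2210409E12Rik, 0.19 for Tmem150a, 0.20 for Kdelr3 and 0.23 for Cplx1. The second Lin28a probe set was nearer than any of them, at 0.15. Spink1 read 34.4, 45.4 and 36.7 on the control arrays and 108, 115 and 127 on the mimic arrays. For 2210409E12Rik the values were 361, 333 and 278 against 836, 824 and 794. Cplx1, a synaptic gene, has 2 other probe sets, which gave log2 fold changes of −0.12 and −0.64, so its likeness rests on 1 probe set. These genes were picked for their values and no test applies to them.

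**Figure D4:**
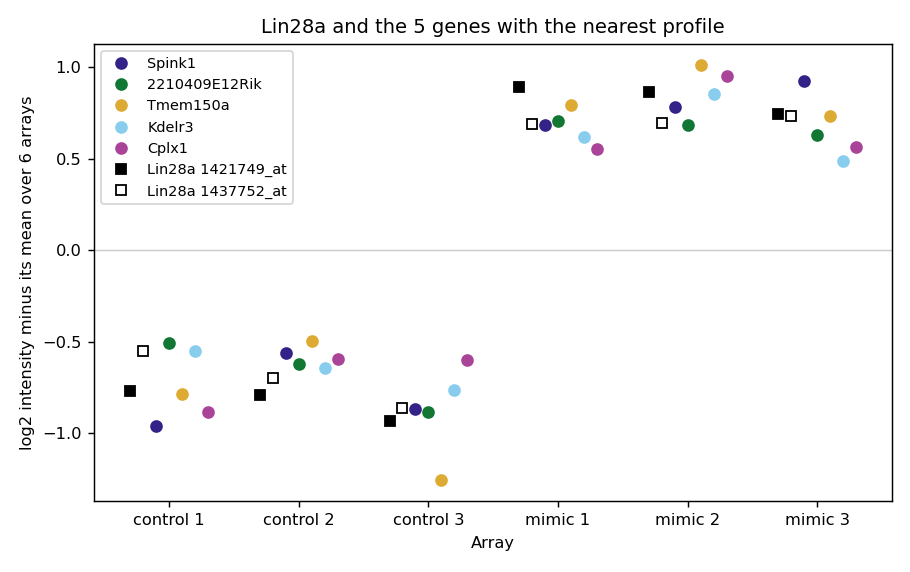
Log2 intensity minus its mean over the 6 arrays (vertical axis) on each array for both Lin28a probe sets (squares) and the 5 nearest genes (circles). In every gene shown the 3 control arrays are below 0 and the 3 mimic arrays are above it, with log2 fold changes from 1.31 to 1.69.

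Other genes of the pathway were taken as 5 lists, with the 7 members left out and the brightest probe set standing for each gene. The lists name 72 distinct genes, of which 63 were tested, 7 had no probe set with their symbol alone and 2 were below the filter. Of the 63, limma called 6 lower and 0 higher at an adjusted p under 0.05; of all 13815 genes it called 1.38% lower and 0.456% higher. At an unadjusted p under 0.05 in limma, 14 were lower and 9 were higher (14.5% and 9.99% of all genes), and the level-dependent robust prior called 11 lower and 10 higher. That prior also called far more of all 29167 tested probe sets, 1914 lower and 1379 higher. Its counts here and in the lists below are to be read beside those. The median log2 fold change of the 63 genes was −0.057, against −0.015 for all genes. Median centring of the arrays kept 2 of the 6 calls, those of Prdm1 and Cdkn1a, and leaving out any 1 array with the constant prior kept 0.

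The genes of proteins that act with Lin28 on let-7 precursors held none that limma called higher beside it with the constant prior. Of 16 genes of precursor processing, uridylation, decay and Lin28 modification, 2 fell and 0 rose (limma; 2 were higher and 2 lower at an unadjusted p under 0.05, and the level-dependent robust prior called the same numbers). Setd7, a lysine methyltransferase reported to modify Lin28a, read 474, 480 and 504 on the control arrays and 343, 309 and 324 on the mimic arrays (log2 fold change −0.58 ± 0.077 SE, limma adjusted p = 0.0457). Its other probe set gave −0.16 and did not pass. Ago1, an Argonaute protein that carries mature microRNAs, read 2942, 3095 and 3188 against 2154, 2059 and 1995 (−0.57 ± 0.075 SE, limma adjusted p = 0.0457). In both genes the groups were clearly apart.

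The enzymes that tail and degrade the let-7 precursor were among those that did not pass. Tut4, the main uridylating enzyme recruited by Lin28a, gave 0.21 ± 0.089 (SE, limma adjusted p = 0.284), and its relative Tut7 gave −0.057 ± 0.096. Dis3l2, the nuclease that removes uridylated precursors, gave 0.077 ± 0.25. Msi1, which can draw Lin28a into the nucleus, gave 0.17 ± 0.22. Each value is from the brightest probe set, of 5 for Tut4, 2 for Tut7 and 3 each for Dis3l2 and Msi1. Their other probe sets are not given here. Tut4, Tut7, Dis3l2 and Msi1 were named for their roles after their values were seen. Khsrp and Tarbp2, chosen in the same way, were higher without passing in limma with the constant prior. They gave 0.44 ± 0.087 and 0.39 ± 0.065 (log2 fold change and SE, limma adjusted p = 0.0791 and 0.0619). Khsrp has 3 probe sets and Tarbp2 has 2, of which only the brightest is given. The level-dependent robust prior called Khsrp and Tarbp2 higher, and Setd7 and Ago1 lower. The list had a median of 0.049.

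Reported let-7 targets other than the members were described next. Cells without Dicer cannot supply their own mature let-7, so the values of these genes are no readout of let-7 here. Of 26 tested genes, 2 fell and 0 rose (limma; 7 were lower and 4 higher at an unadjusted p under 0.05, and the level-dependent robust prior called 5 each way). Prdm1 encodes a transcriptional repressor that acts in the germ line and in B cells. Its probe set read 554, 582 and 593 on the control arrays and 315, 333 and 307 on the mimic arrays (−0.86 ± 0.074 SE on the log2 scale, limma adjusted p = 0.0287). Bach1, a repressor of haem and oxidative stress genes, read 2762, 2716 and 2820 against 1743, 1521 and 1708 (−0.74 ± 0.084 SE, limma adjusted p = 0.0405), while its other probe set, at −0.35, did not pass. The median of these targets was −0.10. Its growth genes lay on both sides of 0 without passing: Myc gave 0.54 ± 0.13, Ccnd1 0.31 ± 0.080 and Mycn 0.18 ± 0.064, whereas Igf1r gave −0.46 ± 0.075 and Cdk6 −0.47 ± 0.15 (log2 fold change and SE). Only the brightest probe set is given, of 5 for Igf1r and 3 each for Ccnd1, Mycn and Cdk6, while Myc has 1. These 5 genes were singled out after their values were seen. They did not pass with the constant prior, while the level-dependent robust prior called Myc, Ccnd1 and Mycn higher and Igf1r and Cdk6 lower.

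mRNAs that Lin28a is reported to bind and help translate did not pass. Of 9 tested, 0 rose and 0 fell in limma, with 2 higher and 0 lower at an unadjusted p under 0.05, and the level-dependent robust prior called 2 higher. The brightest were Pou5f1, the gene of the pluripotency factor Oct4, with 0.10 ± 0.092, Cdk4, a kinase of the G1 phase, with 0.22 ± 0.077, and Pdha1, a subunit of pyruvate dehydrogenase, with 0.076 ± 0.071 (log2 fold change and SE). The list had a median of 0.076. Arrays read mRNA level and not translation, so the step at which Lin28a is reported to act on these mRNAs was not measured.

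Reported targets and partners of Trim71 included 2 that fell among 8, and 0 rose (limma; 4 were lower and 1 higher at an unadjusted p under 0.05, and the level-dependent robust prior called 3 and 1). Rbl2, which encodes the pocket protein p130, read 396, 348 and 307 on the control arrays and 117, 64.7 and 101 on the mimic arrays (log2 fold change −1.93 ± 0.25 SE, limma adjusted p = 0.0453). Its other probe set gave −1.30 and did not pass. Cdkn1a, the gene of the cell cycle inhibitor p21, read 4990, 4932 and 4597 against 2672, 2719 and 2644 (−0.85 ± 0.071 SE, limma adjusted p = 0.0287), and its other probe set fell too, by 0.70. Both genes are also reported targets of the miR-290 family, and neither that relation nor the one to Trim71 was tested here. Trim71 itself was not called, and the list had a median of −0.27.

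The partners and cargo mRNAs of the Igf2bp proteins did not pass either. Of 10 tested, 0 rose and 0 fell in limma, with 2 higher and 1 lower at an unadjusted p under 0.05; the level-dependent robust prior called 2 higher and 1 lower. The brightest were Actb, a transported cargo, with 0.15 ± 0.076, and the particle proteins Ybx1 with 0.20 ± 0.091 and Hnrnpu with 0.039 ± 0.064 (log2 fold change and SE). The list had a median of 0.17. Igf2, the mRNA after which the family is named, was chosen after its values were seen. It read 99.8, 127 and 125 on the control arrays and 165, 145 and 110 on the mimic arrays, which overlap. Igf2 has 2 probe sets, of which only the brighter is given.

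**Figure D5:**
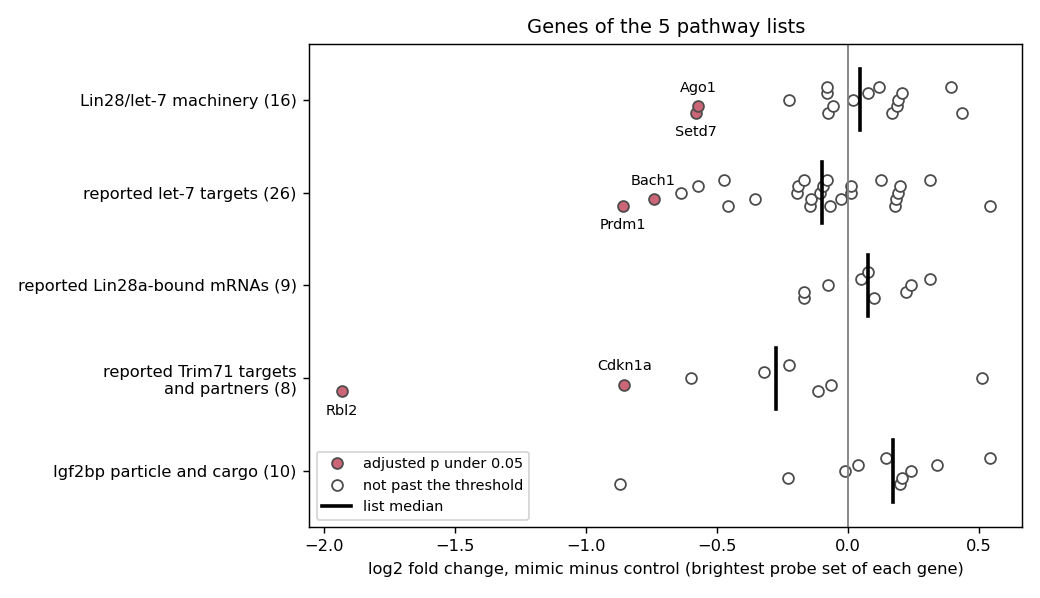
Log2 fold change (mimic minus control) of the tested genes of the 5 pathway lists, 1 point per gene, with the list median as a black bar and the number of genes in brackets. Filled points are the 6 genes with a limma adjusted p under 0.05, all lower: Setd7, Ago1, Prdm1, Bach1, Rbl2 and Cdkn1a.

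Lin28a is also a gene whose level changes as embryonic stem cells leave the ground state, so markers of that step are given beside it. Of the 14 embryonic stem cell markers 0 passed in limma (3 were higher and 0 lower at an unadjusted p under 0.05, and the level-dependent robust prior called 3 higher). The brightest were Dppa5a, Zfp42 and Tdgf1, with log2 fold changes of 0.055 ± 0.099, 0.12 ± 0.066 and 0.11 ± 0.070 (SE). Among 10 epiblast and primed state markers, Dnmt3a rose, while the Nodal antagonist genes Lefty1 and Lefty2 fell by 1.10 and 1.26 on the log2 scale (limma adjusted p = 0.0292 and 0.0386). At an unadjusted p under 0.05, 5 were higher and 2 lower, and the level-dependent robust prior called 5 higher and 2 lower. With median centring 1 was called higher and 1 lower. The list had a median of 0.26. Dnmt3a read 864, 1008 and 842 on the control arrays and 1842, 1749 and 1871 on the mimic arrays (log2 fold change 1.01 ± 0.098 SE, limma adjusted p = 0.0338). Its 4 other probe sets disagreed, with 1.06 called and 0.70, −0.085 and −0.35 not called. Summed intensities of the 10 were 16514 to 17514 on the control and 16913 to 17710 on the mimic arrays.

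Markers of endoderm (8 genes) summed to 394 to 489 on the control and 467 to 585 on the mimic arrays, and those of mesoderm (6 genes) to 491 to 684 and 445 to 499. In limma 0 of either list passed, with 2 endoderm genes higher and 1 mesoderm gene lower at an unadjusted p under 0.05, and the level-dependent robust prior called 0 in both. The brightest endoderm markers, Dab2, Sox7 and Pdgfra, had log2 fold changes of 0.096 ± 0.15, 0.63 ± 0.22 and −0.27 ± 0.30 (SE). Those of mesoderm, Evx1, Eomes and Kdr, had −0.65 ± 0.22, 0.0068 ± 0.12 and −0.46 ± 0.40.

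The 6 neural markers summed to 2064 to 2237 on the control and 2140 to 2455 on the mimic arrays. Tubb3, a neuronal tubulin gene, rose by 0.62 and Sox1 fell by 0.95 on the log2 scale (limma adjusted p = 0.0491 and 0.0458). At an unadjusted p under 0.05, 1 was higher and 2 were lower; the level-dependent robust prior called 1 higher and 0 lower, and with median centring 0 were called in either direction. Sox1 was dim, with group means of 71.6 (control) and 36.9 (mimic), and its other probe set was below the filter. The list had a median of −0.22. Among the 7 tested feeder markers, Tagln, an actin-binding gene of fibroblasts and smooth muscle, fell by 1.05 (limma adjusted p = 0.0422) and 0 rose. At an unadjusted p under 0.05, 4 were lower and 1 was higher; the level-dependent robust prior called 3 lower and 0 higher, and median centring 0 in either direction. These 7 had a median of −0.90. Vim, an intermediate filament gene, had −0.34 ± 0.069 (SE, limma adjusted p = 0.081) on its brightest probe set, while its 2 other probe sets were called lower, with −0.52 and −0.48; Thy1 had 0.10 ± 0.13. Whether these differences bear on Lin28a was not tested.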

How the data were processed

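Total RNA was labelled as biotinylated cRNA and read on Affymetrix arrays, per the labels' protocols. The authors deposited linear intensities, 1 per probe set and array. The submitters' processing notes name GCRMA without a version, while the mean of each array without its lowest and highest 2% is 500, so the tool behind the values remains unknown here. Intensities were log2-transformed with no offset and not normalized again. Of 45101 probe sets, 64 controls and 15870 with a mean log2 under 4 were left out, which also removes members that are low in both groups. The remaining 29167 were fitted by lmFit and eBayes of limma (version 3.58.1, under R 4.3.3; constant prior variance, 2-sided, all 6 arrays, no covariate), with Benjamini-Hochberg adjustment. The fit was also run on simulated data with known changes, whose outcome is not given here and backs no result. Samples were grouped by their titles. Symbols come from the platform annotation; 34754 of 34958 matched a GRCm38.p6 table by gene identifier, and 0 changed. Background was not measured.

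The members, lists and tests were chosen with earlier results of these data known. Genes were named by rule: all members; in each list the 4 called genes that changed most, or the 3 brightest if under 2 were called; and the 5 nearest profiles. Others are stated as chosen after their values were seen. The alternatives were median centring, quantile normalization, an offset of 16, other filters, a level-dependent robust prior, the replicate number as a block, each array left out and averaging all probe sets of a gene.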

Additional observations from a re-analysis of the deposited data

How the results depend on the processing

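The fold changes of Lin28a were stable in size: over 20 alternatives, 1421749_at lay between 1.61 and 1.71 and 1437752_at between 1.33 and 1.49, and both were called in 12. Those that ended both calls, leaving 0 members called higher, were no filter on low values, the replicate block and leaving out any array with the constant prior. Members called lower were 0, but 2 with the level-dependent robust prior (0 to 2 without 1 array) and 1 with that prior after median centring, an alternative added after seeing the data. For all probe sets, 276 lower and 100 higher became 1914 and 1379 with the robust prior, 1522 and 851 with a filter at 6, 103 and 50 with median centring, 1423 and 1762 with centring and the robust prior, 442 and 186 with an offset of 16, and 0 and 0 with no filter or the replicate block. Without 1 array they were 0 and 0 to 1, or 1186 to 1600 and 730 to 1244 with the robust prior. Pathway genes called, 6 lower and 0 higher, became 11 and 10 with the robust prior, 9 and 11 with centring added, 8 and 5 with a filter at 6, 2 and 0 with median centring, and 0 and 0 with no filter or the replicate block. Without 1 array they were 0 and 0, or 7 to 10 and 5 to 12 with the robust prior. The cause was not tested. With no filter 5645 of 45037 probe sets, and with the block 5189 of 29167, had an unadjusted p under 0.05 in limma. Whether the replicate numbers pair the samples cannot be settled from 3 arrays per group. Deviations of same-numbered arrays correlated at −0.040, 0.079 and 0.11. Arrays of replicates 2 and 3, but not of replicate 1, correlated best with their own number. The number of arrays and signal near the floor, as for Lin28b, limit what can be detected.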
